A study of Mus musculus with 57 samples.

Results

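The comparison described here asked how autosomal gene expression differed between adult male and female mouse brain once adult hormone levels had been made alike. The tissue was a dissected block that held the preoptic area (POA) and the neighbouring bed nucleus of the stria terminalis (BNST), written BNST/POA below. All mice were C57BL/6J. The XY mice were males and the XX mice were females, and both received oil vehicle on the day of birth. Both groups were gonadectomized at postnatal day (PN) 21, received a testosterone capsule at PN45 and were examined at PN60. Each array measured RNA pooled from 3 animals, and 5 XX pools and 5 XY pools, 10 of the 57 arrays in the series, entered the comparison. The other day 60 group, XX+T, consisted of females given testosterone propionate on the day of birth and then the same surgery and implant as the others, and it serves here as a reference for single genes and for XY pool 6. The remaining arrays covered PN4 mice, which had no surgery or implant, and the striatum.

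Several features of the design limit what the groups stand for. Males and females were caged apart after weaning, so sex and cage cannot be told apart. XX and XY mice differed in their sex chromosomes, in their gonads before PN21 and in the hormones these gonads made, and the comparison does not separate these factors. The block held neurons, glia, vessels and neighbouring tissue, and fewer cells of a type and less RNA per cell cannot be told apart. The labels call the pools biological replicates, so the p-values measure the spread between pools.

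The BNST and the POA are among the most sexually dimorphic regions of the rodent brain. They hold dense populations of neurons with androgen and estrogen receptors and take part in mating, parental behavior, aggression and the control of gonadotropin release. Testosterone from the newborn testis, in large part after aromatization to estradiol, masculinizes these regions during a perinatal sensitive period, in part by sparing or removing neurons through cell death. Circulating hormones in adulthood act on the circuits laid down in this period, which is why removal of the gonads and an equal implant separate lasting differences from current ones.

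Probes that were detected (detection p under 0.05) on at least 20 of the 57 arrays were kept, which left 13731 of 25697 probes. Of these, 12494 probes of 9233 genes were autosomal and form the set described here. The 445 kept probes of X- and Y-linked genes and the 792 kept probes without a known chromosome were left out of the counts below. Quantile normalization gives all arrays the same distribution of values. Levels are log2 intensities after quantile normalization, and differences are XY minus XX on this log2 scale, so that a difference of 1 is a doubling and a difference of 0.25 is a small change. Levels of different probes are not compared with each other, because probes differ in how well they bind.

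One XY array stood apart from all others of the comparison. XY pool 6 had 13308 detected probes, against 11687 to 12283 on the other 4 XY arrays and 12404 to 12537 on the XX arrays. On XY pool 6, 1237 autosomal probes lay more than 1 log2 unit from the XX mean, whereas 0 to 19 probes did so on the other XY arrays. Its levels correlated most closely with XX+T pool 6 (Pearson r = 0.9906 across autosomal probes, which are not independent replicates), compared with 0.934 to 0.9451 for the XX arrays and 0.8948 to 0.9263 for the other XY arrays. XX+T pool 5, with 13168 detected probes, came next at 0.9723, and XX+T pools 4 and 2 were at 0.9375 and 0.9105. The Y-linked gene Eif2s3y followed the labelled sex on all 10 arrays, XY pool 6 included. Results are therefore given with and without this array.

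The differences that set XY pool 6 apart were large and ran in both directions. The probe for Map1b, a microtubule-associated protein of axons, read 11.9 on XY pool 6 and 7.99 to 8.72 on the other XY arrays. Atp1b2, a subunit of the sodium pump, read 12.5 on XY pool 6 and 8.99 to 9.73 on the others. In the other direction, a probe for Mcph1, which acts in chromosome condensation and the DNA damage response, read 7.69 against 11.1 to 12.1. Tefm, a mitochondrial transcription elongation factor, read 8.86 against 10.9 to 11.3. For these 4 probes XX+T pool 6 read 11.97, 12.33, 10.77 and 8.98, so that it was near XY pool 6 for all but Mcph1.

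Several probes for the same transcript also moved apart on this array. Actb, the gene of cytoplasmic beta-actin (chromosome 5), had 5 kept probes and was chosen for description after its values were seen. The second probe, in order of XX level, read 13.06 to 13.38 on the XX arrays, 12.47 to 12.80 on the other 4 XY arrays and 14.02 on XY pool 6. The fifth probe read 9.67 to 10.45 on the XX arrays, 10.23 to 10.88 on the other 4 XY arrays and 9.27 on XY pool 6. The same gene thus had probes that were high and probes that were low on XY pool 6, and the other 4 XY arrays lay on the opposite side of the XX mean in both cases.

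**Figure D1:**
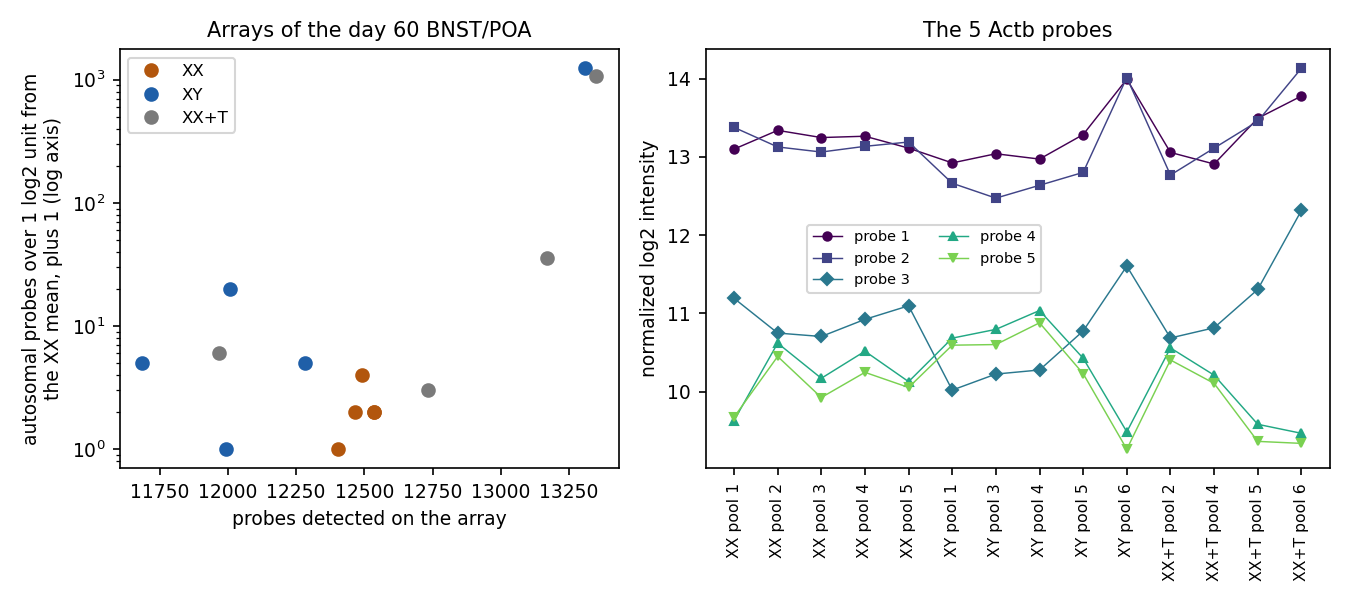
Left, the number of detected probes on each day 60 BNST/POA array (horizontal axis) against the number of autosomal probes more than 1 log2 unit from the XX mean, plus 1 (vertical log axis). Right, the log2 level of the 5 Actb probes on each array, 1 line per probe. XY pool 6, with 13308 detected probes, and XX+T pool 6 lie farthest from the other arrays. XX+T pool 5, with 13168 detected probes and 35 probes over 1 log2 unit, comes next. The Actb probes of XY pool 6 run from 13.99 and 14.02 down to 9.27.

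With all 10 arrays, no autosomal gene passed the test. The fit with limma's moderated test called 0 of 12494 autosomal probes (0%) at a Benjamini-Hochberg adjusted p under 0.05, where 3 of all 13731 probes (0.0218%) passed, none of them autosomal. At an unadjusted p under 0.05 there were 312 autosomal probes (2.5%), of which 112 (0.896%) were higher and 200 (1.6%) lower in XY. A fit that used array weights, which count an array less when it departs from its group, called 158 autosomal probes. A limma fit to the 10 day 60 arrays alone called 0, with a smallest autosomal adjusted p of 0.99993. The median difference over autosomal probes was -0.0041, 153 probes differed by more than 0.25, 10 by more than 0.5 and 3 by more than 1.

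The arrays set a clear limit on what could be seen. The median half-width of the 95% interval of a difference was 0.234. The interval lay within 0.25 of zero in both directions for 30.0% of autosomal probes, within 0.5 for 84.2% and within 1 for 99.6%. The median SD of a probe was 0.106 over XX arrays and 0.232 over XY arrays, and 0.133 over XY arrays without pool 6. The SD was larger in XY than in XX for 86.2% of probes, and for 63.4% without pool 6.

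The autosomal gene with the smallest p-value was Kiss1, which encodes kisspeptin, a neuropeptide that drives gonadotropin-releasing hormone neurons. In rodents, kisspeptin neurons of the rostral periventricular preoptic region are more numerous in females, and testosterone around birth reduces them. Kiss1 (chr1:133321887-133329722, GRCm38.p6) read 10.02, 9.77, 9.42, 9.79 and 9.69 on the 5 XX arrays. It read 9.14, 8.95, 9.06 and 8.68 on XY pools 1, 3, 4 and 5 and 7.63 on XY pool 6. Every XY array was below every XX array, and XY pool 6 was the lowest. The difference was -1.05 (SE 0.215, 95% interval -1.50 to -0.60). Its unadjusted p was 1.07e-04 and its adjusted p 0.244 in the limma fit of both ages, so it did not pass over all probes.

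Kiss1 passed once XY pool 6 was left out, where the difference was smaller and the error smaller still. The difference was then -0.78 (SE 0.14, limma adjusted p = 0.0352). The array-weighted fit gave -0.77 with an adjusted p of 0.00528, and over all 22 alternatives tried the adjusted p ran from 0.00528 to 1.00. At PN4 the difference in the same tissue was -0.18, and in the striatum at PN60 it was -0.04. The XX+T arrays read 9.09, 8.88, 8.31 and 7.77, below all XX arrays, with a difference from XX of -1.22 (limma adjusted p = 0.0405). That comparison and the one of XY with XX share the same 5 XX arrays. It also holds XX+T pools 5 and 6, whose departures from the XX mean correlated with those of XY pool 6 (Pearson r = 0.793 and 0.917). The XX+T difference was not fitted without these arrays.

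Leaving out XY pool 6 brought 6 autosomal genes past the threshold (6 of 12494 probes, 0.048%, limma), of which 4 were higher and 2 lower in XY. Kiss1 and Cryab were the lower ones. Cryab (chr9:50745951-50756636), a small heat shock protein that is abundant in oligodendrocytes and astrocytes, read 11.91, 11.51, 11.76, 11.77 and 11.56 on the XX arrays and 11.25, 11.11, 11.23 and 11.13 on the 4 XY arrays. XY pool 6 read 11.75, inside the XX range. The difference of Cryab was -0.52 without XY pool 6 (adjusted p = 0.047) and -0.41 with it.

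The 4 higher genes shared a pattern in which XY pool 6 was the lowest of all 10 arrays. Cstad (chr2:30595044-30608945), a mitochondrial protein known from T cells treated with cyclosporin, read 7.64 to 7.83 in XX, 8.05 to 8.35 in 4 XY pools and 7.40 in XY pool 6, and its difference was 0.49 without that pool (adjusted p = 0.0217). Spink8, a serine protease inhibitor, read 8.69 to 9.34 in XX, 9.26 to 9.75 in 4 XY pools and 7.74 in XY pool 6. The ranges overlapped, since XX pool 3 exceeded XY pool 5, and its difference was 0.60 without pool 6 (adjusted p = 0.047). Cd84, a receptor of immune cells, differed by 0.37 (7.61 to 7.76 in XX, 7.91 to 8.25 in 4 XY pools, 7.37 in pool 6, adjusted p = 0.047). Apoc3, an apolipoprotein, differed by 0.43 (9.03 to 9.19 in XX, 9.32 to 9.80 in 4 XY pools, 7.94 in pool 6, adjusted p = 0.0471). With XY pool 6 included the differences of Cstad, Spink8, Cd84 and Apoc3 were 0.32, 0.23, 0.23 and 0.12, and none passed.

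**Figure D2:**
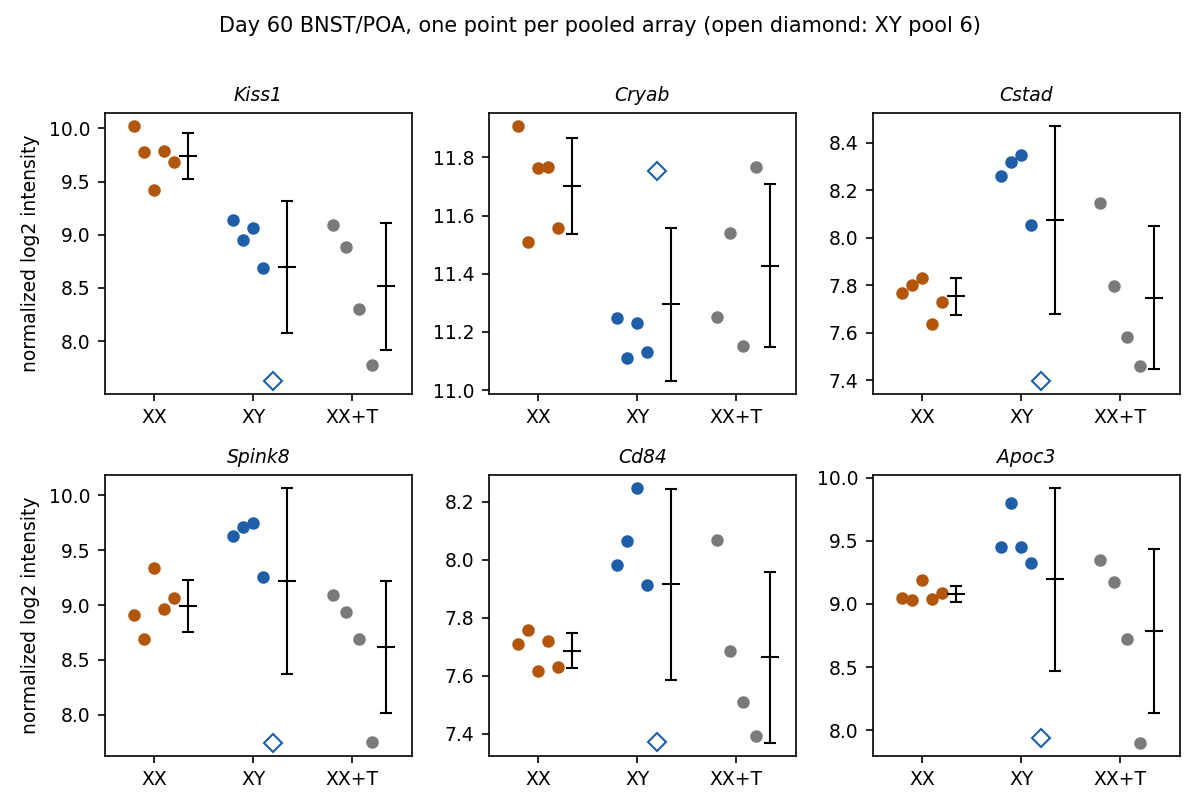
Log2 level (vertical axes) of Kiss1, Cryab, Cstad, Spink8, Cd84 and Apoc3 on each day 60 BNST/POA array of the XX, XY and XX+T groups. Points are pools, black marks show the mean ± SD of a group and the open diamond marks XY pool 6, which lies below all XX arrays for every gene shown but Cryab, where it reads 11.75.

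Across all 12494 autosomal probes, 57 (0.456%) had groups that did not overlap, 17 (0.136%) with every XY array above every XX array and 40 (0.32%) with every XY array below. Without XY pool 6 there were 1208 such probes (9.67%). Of the 17 and 40, 15 and 34 were detected on all arrays of at least 1 group. These probes are described by their levels, and none had an adjusted p under 0.05 with all 10 arrays in limma.

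Among the genes that were lower on all 5 XY arrays, Kiss1 had the largest difference and Esam and Grcc10 followed at -0.32 each. Esam, an adhesion molecule of endothelial tight junctions, read 9.51 to 9.72 in XX and 9.24 to 9.50 in XY. Grcc10 read 12.66 to 12.76 in XX and 12.23 to 12.62 in XY. Gal3st1, the sulfotransferase that makes the myelin lipid sulfatide, differed by -0.28 (9.99 to 10.37 in XX, 9.69 to 9.96 in XY), and Htra3, a secreted serine protease, also by -0.28 (7.82 to 8.13 in XX, 7.58 to 7.73 in XY). For all 4 genes the groups were separated by less than the spread within a group.

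Rps26, a protein of the small ribosomal subunit, had the next difference, -0.27, with the XX arrays at 13.75 to 13.94 and the XY arrays at 13.48 to 13.64. Its unadjusted p was 6.15e-04 and its adjusted p 0.938 in limma. XY pool 6 read 13.58, in the middle of the other XY arrays. Epm2a, the glycogen phosphatase laforin, differed by -0.26 and was detected on 5 XX arrays but on 1 XY array, so on 4 XY arrays its level was not above background. Rab1b, a small GTPase of transport from the endoplasmic reticulum to the Golgi, differed by -0.26 on 1 probe and by -0.16 and -0.05 on the others. Msi2, an RNA-binding protein of progenitor cells, differed by -0.24 (-0.11 on its other probe), and Brap, a ubiquitin ligase that binds BRCA1, by -0.24.

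Genes that were higher on all 5 XY arrays differed by 0.25 at most. Zfp629, a zinc finger protein, read 7.63 to 7.82 in XX and 7.84 to 8.15 in XY (difference 0.25). Xrcc3, which acts in DNA repair by homologous recombination, read 8.02 to 8.16 in XX and 8.18 to 8.62 in XY (0.23). Nrf1, a transcription factor of mitochondrial and metabolic genes, read 8.54 to 8.64 in XX and 8.68 to 8.89 in XY (0.20). For all 3 genes the gap between the groups was smaller than the spread within XY.

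The other 7 in this direction were Faf1, an adaptor of ubiquitin-dependent degradation (0.23), Ebna1bp2, a nucleolar protein of ribosome assembly (0.19), Lrrc56 (0.19, detected on 3 XX arrays), Riok1, a kinase of ribosome assembly (0.18), Abcb4, a phospholipid transporter (0.18), Nars2, the mitochondrial asparaginyl-tRNA synthetase (0.18), and Spag8 (0.17, detected on 2 XX arrays). Second probes did not repeat the differences of 3 of them. The other probe of Faf1 differed by 0.04, those of Ebna1bp2 by 0.04 and 0.03, and that of Riok1 by -0.04.

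**Figure D3:**
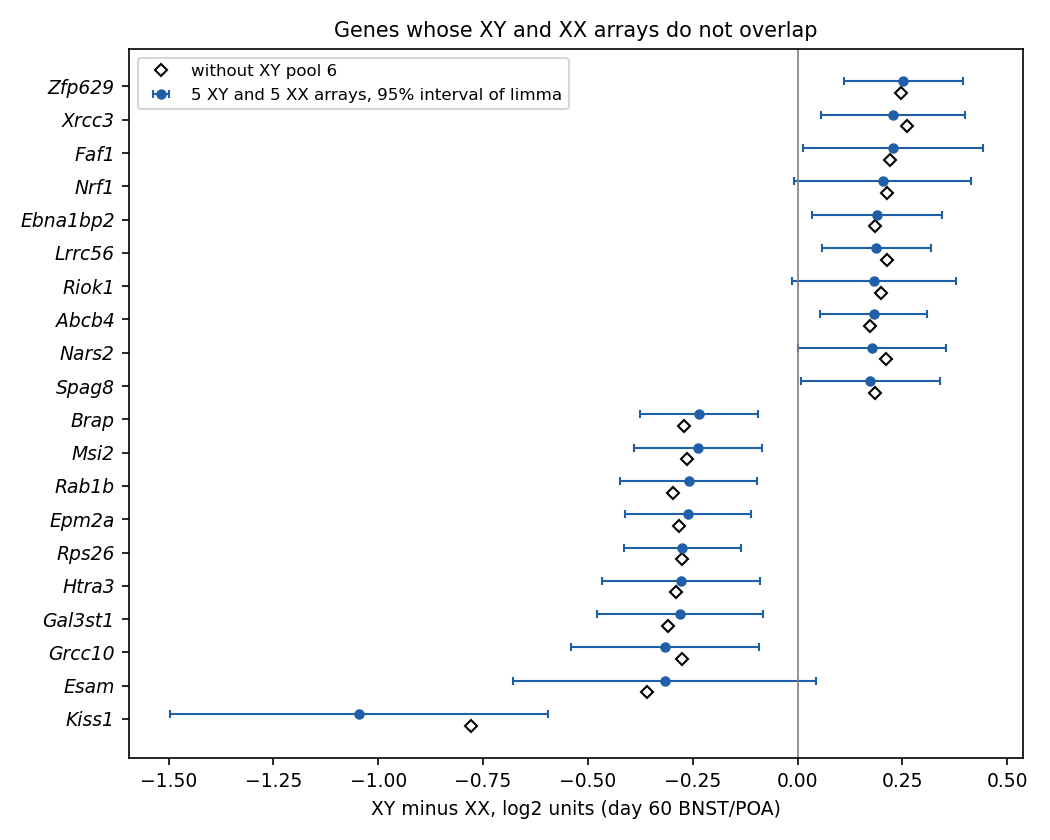
Difference XY minus XX (log2, horizontal axis) for the genes with the 10 largest positive and 10 largest negative differences among those whose 5 XY and 5 XX arrays did not overlap, with the 95% interval from limma (bars) and the value without XY pool 6 (diamonds). Kiss1 at -1.05 is far outside the other genes, which lie between -0.32 and 0.25.

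Genes known for sex differences in the rodent BNST and POA were then examined as a list of 16, of which 12 were measured. Apart from Kiss1, the difference of each lay between -0.25 and 0.07, and 6 of the 12 were higher and 6 lower in XY (median -0.02). Over all 9233 autosomal genes 4442 were higher and 4791 lower, with a median of -0.00. Without XY pool 6 the list had 4 higher and 8 lower members (median -0.13), and all genes a median of -0.01. Kiss1 was the only member with an unadjusted p under 0.05 with all 10 arrays.

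The peptide genes of this list were Cartpt, Gal, Tac1 and Avp beside Kiss1. Gal, galanin, a peptide of preoptic neurons active in parental care and sleep, read 12.64, 12.29, 12.64, 12.50 and 12.41 in XX and 12.18, 12.18, 12.12 and 12.39 in 4 XY pools, with 12.71 in pool 6. XY pools 1, 3 and 4 were below all XX pools. The difference was -0.18 with all arrays and -0.28 without pool 6 (neither passed). Cartpt, the precursor of the peptide CART, differed by -0.19 and Tac1, the precursor of substance P, by 0.06. Avp, vasopressin, whose BNST neurons are more numerous in male rodents, differed by 0.00, with a 95% interval of -0.39 to 0.39 that leaves room for a moderate difference either way.

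Th, tyrosine hydroxylase, the rate-limiting enzyme of dopamine synthesis, marks a group of anteroventral periventricular neurons that is larger in female rodents. It read 7.93, 7.78, 7.88, 7.91 and 7.94 in XX. It read 7.27, 7.35 and 7.48 in XY pools 1, 3 and 4, 7.93 in XY pool 5 and 8.14 in XY pool 6. The XY pools therefore spread over a wider range than the XX pools and lay on both sides of it. The difference was -0.25 (interval -0.51 to 0.00, unadjusted p = 0.0541), and -0.38 without XY pool 6. Th was detected on all 5 XX arrays and on 3 of the 5 XY arrays.

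The hormone-responsive members of the list differed little between the groups. Pgr, the progesterone receptor and an estrogen target, differed by 0.02 (interval -0.15 to 0.19) and Greb1, another estrogen target, by -0.04 (-0.20 to 0.13). Moxd1, a monooxygenase-like protein that marks the sexually dimorphic nuclei of the preoptic area and BNST, differed by -0.10 (-0.35 to 0.15). Pgr was detected on 3 XX and 2 XY arrays, so its values were mostly at background and bound no difference in expression. Greb1 was detected on 5 XX and 4 XY arrays. Ecel1, a neuronal endopeptidase, read 11.31 on XY pool 6 and 9.37 to 9.97 on the other XY arrays, against 9.73 to 10.04 in XX, so that its difference was 0.07 with pool 6 and -0.27 without. Chodl, a membrane lectin, went the other way, with 0.02 and 0.22, and Nnat, an imprinted neuronal gene, differed by 0.01 and -0.05. The signs of Chodl, Ecel1, Nnat, Pgr and Avp turned negative and that of Greb1 positive when the arrays were centred on their medians.

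The genes of steroid hormone action showed no difference past the test. Of 20 steroid receptor and cofactor genes 10 were measured, 5 higher and 5 lower in XY (median -0.01). The androgen receptor is X-linked and not described here. The largest differences in this list were in Ncoa1, a coactivator of steroid receptors, at 0.21 (interval -0.22 to 0.63) and in Ncoa4, an androgen receptor coactivator that also acts in ferritin turnover, at -0.18 (-0.47 to 0.12). Ncoa1 read 9.60 on XY pool 6 and 8.63 to 9.08 on the other XY arrays, and its difference was 0.05 without pool 6.

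Of 18 enzymes of steroid metabolism 10 were measured, 2 higher and 8 lower, with a median of -0.05. Sult1a1, a sulfotransferase of phenolic steroids and drugs, differed by -0.30 (interval -0.65 to 0.05), Hsd17b11 by -0.19 and Hsd17b12 by -0.11, and the last 2 are hydroxysteroid dehydrogenases. Of 17 known targets of steroid hormones 14 were measured, 9 higher and 5 lower (median 0.03), which turned to 5 higher and 9 lower (median -0.05) without XY pool 6. Beside Kiss1, Cdkn1a, an inhibitor of the cell cycle, differed by -0.26 and Sgk1, a kinase induced by corticosteroids, by 0.09. Igf1r, the receptor of insulin-like growth factor 1, was detected on 0 XX arrays and 1 XY array, so its values (difference 0.13) were background. Fkbp5, a target of glucocorticoids and androgens, was detected on 2 XX arrays and 1 XY array.

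Neuropeptide genes were examined as a wider list. Of 34 peptides and granins 25 were measured, 9 higher and 16 lower in XY, with a median of -0.10 (-0.05 without pool 6). At an unadjusted p under 0.05 in limma there were 3 of the 25, all lower. Of all 9233 autosomal genes, 142 were lower and 84 higher at that threshold. The 3 peptide genes were Kiss1, Prok2 at -0.35 and Trh at -0.21. Prok2, prokineticin 2, an output signal of the circadian clock, read 7.78, 7.72, 8.48, 8.32 and 8.13 in XX and 7.71, 7.86, 7.42, 7.92 and 7.77 in XY, so that 2 XX pools fell among the XY pools. Trh, thyrotropin-releasing hormone, read 13.07 to 13.29 in XX and 12.93 to 13.14 in XY.

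Hcrt, the precursor of the orexins made in the neighbouring lateral hypothalamus, varied most between pools. It read 7.40, 7.65, 7.81, 9.25 and 8.13 in XX, 7.99, 8.51, 8.34 and 7.63 in 4 XY pools and 10.40 in XY pool 6. Its difference was 0.52 with XY pool 6 and 0.07 without, and neither passed. All XX+T arrays were higher, at 10.17, 10.80, 9.94 and 10.71. XY pool 6 was thus in the range of XX+T for this gene while the other XY arrays were in the range of XX. Of the other peptides, Oxt, Npy, Vip, Nts and Cck differed by -0.14, -0.15, -0.18, -0.10 and -0.15 in this order, and Sst, Pdyn and Adcyap1 by 0.03, -0.02 and -0.06.

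Of 36 peptide receptors 18 were measured, 10 higher and 8 lower (median 0.01), and 6 higher and 12 lower (median -0.08) without XY pool 6. Avpr1a, the vasopressin receptor of brain and a mediator of social behavior, read 8.34 to 8.61 in XX, 8.76 to 8.97 in 4 XY pools and 8.17 in XY pool 6. Its difference was 0.20 with all arrays and 0.34 without XY pool 6. Npy2r, a presynaptic receptor of neuropeptide Y, differed by -0.20 (interval -0.41 to 0.01). Of 33 genes of GABA and glutamate signalling 15 were measured, 8 higher and 7 lower (median 0.01, and -0.15 without pool 6). Gabrb1, a GABA receptor subunit, read 9.92 on XY pool 6 and 7.89 to 8.36 on the other XY arrays, which turned its difference from -0.15 without that pool to 0.20 with it.

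**Figure D4:**
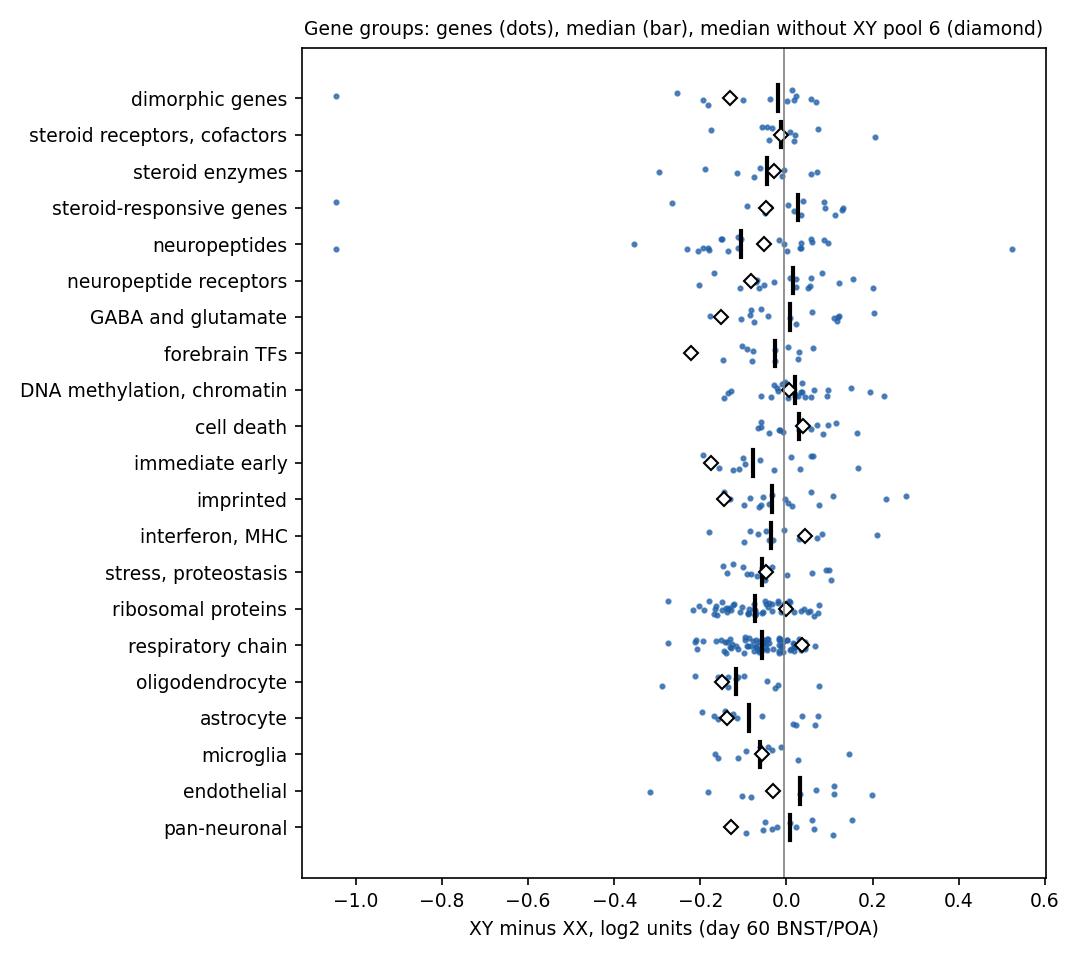
Difference XY minus XX (log2, horizontal axis) of every measured gene (dots) in 21 gene lists, with the median of a list as a bar, the median without XY pool 6 as a diamond and the median of all 9233 autosomal genes as a grey line. The list medians lie near the grey line, from -0.12 for oligodendrocyte genes to 0.03, and Kiss1 is the lowest dot in the lists that hold it.

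Genes that act on chromatin and DNA methylation were examined next, since the study also profiled DNA methylation in this tissue. Of 35 such genes 27 were measured, 15 higher and 12 lower (median 0.02). Kdm1a, a histone H3 lysine demethylase, was higher on every XY array (10.83 to 10.96) than on any XX array (10.59 to 10.76), with a difference of 0.15 (interval -0.02 to 0.32). Hdac1, a histone deacetylase, read 9.51 to 9.70 in XX, 9.97 to 10.12 in 4 XY pools and 8.88 in XY pool 6. Its difference was 0.23 with all arrays and 0.46 without pool 6. The 15 measured genes of cell death, a process that shapes these nuclei early in life, had 8 higher and 7 lower members and a median of 0.03. Of 17 measured imprinted genes 7 were higher and 10 lower (median -0.03), and 4 higher and 13 lower (median -0.14) without XY pool 6. Mest, a growth-related hydrolase, had an unadjusted p of 0.035 at 0.28, where XY pool 4 read 8.01 and the other 9 arrays 7.02 to 7.47. Mest was detected on 1 XX array and 2 XY arrays.

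Markers of oligodendrocytes were mostly lower in XY, without any of them passing the test. Of 18 markers 13 were measured, all 13 were detected on all 10 arrays, and 12 were lower in XY with a median of -0.12, against a median of -0.00 over all genes. The summed level of the list, on the linear scale, was 89694 to 93690 in XX, 78249 to 84973 in 4 XY pools and 117780 in XY pool 6, so that XY pool 6 was above all XX arrays and the other 4 below them. Mog, a myelin protein, had an unadjusted p of 0.0289 at -0.14. Olig1, a transcription factor of the lineage, read 12.79, 12.47, 12.76, 12.65 and 12.56 in XX, 11.90, 11.94, 11.90 and 12.19 in 4 XY pools and 13.86 in XY pool 6. Its difference was -0.29 with pool 6 and -0.66 without. The part of dissection or cell number in these values was not tested.

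With all arrays the medians of astrocyte, microglial and pan-neuronal markers were -0.09, -0.06 and 0.01. Without XY pool 6, 11 of 12 astrocyte markers (median -0.14) and 10 of 11 pan-neuronal markers (-0.13) were lower in XY, as were 11 of 13 oligodendrocyte markers (-0.15), while microglial markers were 6 lower and 5 higher (-0.06). Summed over each list, astrocyte markers were 57964 to 63909 in XX, 52238 to 62652 in 4 XY pools and 82410 in XY pool 6, and microglial markers 8436 to 9037 in XX, 8200 to 9160 in 4 XY pools and 9280 in XY pool 6. Pan-neuronal markers were 55631 to 58699 in XX, 49702 to 58620 in 4 XY pools and 81153 in XY pool 6. Laptm5, a lysosomal protein of microglia, read 10.01 to 10.32 in XX, 9.15 to 9.86 in 4 XY pools and 11.77 in XY pool 6. Ctss, the microglial protease cathepsin S, was lower on every XY array (7.56 to 7.70) than on any XX array (7.75 to 7.95) with a difference of -0.16.

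Markers of tissue next to the dissected block were compared in the same way. The measured striatal neuron markers were 12 of 16, with a summed level of 8202 to 9098 in XX, 8884 to 9018 in 4 XY pools and 9660 in XY pool 6. Thalamic markers, 8 of 10 measured, had a median difference of -0.00, and -0.21 without XY pool 6, and were at 15951 to 21494 in XX, 15419 to 19279 in 4 XY pools and 34236 in XY pool 6. Choroid plexus and ependyma markers, 8 of 14 measured, were at 7319 to 10207 in XX, 9396 to 9922 in 4 XY pools and 5578 in XY pool 6. Blood genes, 4 of 8 measured, were at 12392 to 17276 in XX, 12095 to 15002 in 4 XY pools and 11911 in XY pool 6. Outside XY pool 6 the 2 groups overlapped in each of these 4 lists, and whether they bear on any gene above was not tested.

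The genes of the ribosome and of the respiratory chain leaned one way with all arrays and not without pool 6. Of 56 ribosomal protein genes 44 were lower in XY (median -0.07), but without XY pool 6 there were 29 lower and 27 higher (median -0.00). Of 71 respiratory chain genes 56 were lower (median -0.06), and without XY pool 6 there were 27 lower and 44 higher (median 0.04). Beside Rps26, Rpl23a differed by -0.22 (unadjusted p = 0.00393) and Rps2 by -0.17 (0.00988), and without XY pool 6 the differences of Rps26 and Rpl23a were -0.28 and -0.24.

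A fit of the day 60 arrays alone without XY pool 6, chosen after seeing the data, gave many more calls. It called 847 autosomal probes of 775 genes (6.78%), 380 (3.04%) higher and 467 (3.74%) lower in XY, with a median size of 0.358 and 93 over 0.5. All 6 genes called without pool 6 in the fit of both ages were among them. XY pool 6 lay on the other side of the XX mean for 827 of these 847 probes (97.6%), and beyond all 5 XX arrays on that side for 806 (95.2%). The same fit with XY pool 6 included called 0 autosomal probes, so these shares were partly fixed by the choice of probes. The matching shares over all autosomal probes were not counted. Opposite departures were not particular to these probes. Over all autosomal probes, XY pool 6 correlated in its departures at -0.549, -0.597, -0.698 and -0.262 with XY pools 1, 3, 4 and 5. The 4 XY arrays and the array left out thus departed from XX in opposite directions at nearly all of the called probes. Over all autosomal probes, departures of the 4 XY arrays from the XX mean correlated with each other at 0.0271 to 0.652 (Pearson r). Those of the female array XX+T pool 2 correlated with XY pools 1, 3, 4 and 5 at 0.407, 0.489, 0.6 and 0.432. XX+T pool 4 correlated with them at 0.0246 to 0.121. XX+T pools 5 and 6 correlated with XY pool 6 at 0.793 and 0.917. The departures share the 5 XX arrays and were not confined to XY arrays.

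Where a gene had several probes, they did not always move together in this fit. Of the 775 genes 319 had several probes, and in 286 of these all probes lay on the same side of zero. In 66 genes more than 1 probe was called, the same way in 65 and both ways in Actb. Its probes differed by -0.53 (adjusted p = 0.00798) and -0.61 (0.0214) on one side and by 0.51 (0.0486) on the other, with a further probe at 0.52 (0.0676).

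Counted with 1 probe a gene, the fit called 7.33% of all autosomal genes. It called 4 of 25 neuropeptide genes (16%), 2 of 12 dimorphic genes (16.7%), 2 of 14 steroid targets (14.3%), 2 of 18 peptide receptors (11.1%), 2 of 11 forebrain transcription factors (18.2%) and 0 of 10 steroid receptor genes. Lists below the share over all genes included ribosomal (5.36%), respiratory chain (1.41%), chromatin and DNA methylation (3.70%), cell death (6.67%) and imprinted genes (0%). Kiss1 is counted in the neuropeptide, dimorphic and steroid target lists alike. With so few genes in a list, each share rests on at most 4 genes. In the neuropeptide list, Vgf at -0.61 (adjusted p = 0.0313) and Chgb at -0.43 (0.0239), both proteins of secretory granules, fell with Kiss1 (0.00649), while Nmu, neuromedin U, rose by 0.39 (0.0448). Among receptors, Avpr1a rose by 0.34 (0.0216) and Ntsr2, a neurotensin receptor of astrocytes, fell by 0.33 (0.0359). Among steroid targets Igfbp5, a binding protein of insulin-like growth factors, fell by 0.45 (0.00884). Th fell by 0.38 with an adjusted p of 0.0495, at the threshold, and Hdac1 rose by 0.46 (0.00798).

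Markers of several cell types were also among those called in this fit, beside 7.33% of all genes. The share was 0% for striatal neuron, cortical neuron, cholinergic and blood markers. Of 11 pan-neuronal markers 2 fell (18.2%), Syt1, a calcium sensor of synaptic vesicles, by 0.42 (adjusted p = 0.0319) and Elavl3, a neuronal RNA-binding protein, by 0.40 (0.0255). Of 8 choroid plexus and ependyma markers 2 rose (25%), Otx2 by 0.32 (0.0254) and Rarres2 by 0.34 (0.034). This list had 6 higher and 2 lower members without XY pool 6 (median 0.14), and 4 and 4 with all arrays (median 0.02). Sostdc1, a member that went the other way, differed by -0.11 without XY pool 6. Of the 13 oligodendrocyte markers 3 fell (23.1%), namely Olig1 (adjusted p = 0.00411), Cldn11, a tight junction protein of myelin, by 0.46 (0.0125), and Cnp, a myelin enzyme, by 0.32 (0.031). Of 12 astrocyte markers 2 fell (16.7%), Agt by 0.43 (0.030) and Ntsr2 by 0.33 (0.0359). Slc6a11, a GABA transporter found mainly on astrocytes but counted in the GABA and glutamate list, fell by 0.51 (0.00798). The share called was 11.1% of 9 endothelial markers and 16.7% of 6 markers of vessel wall cells. Microglial markers went both ways, since Laptm5 fell by 0.62 (0.0109) and 1 probe of Aif1, the microglial protein Iba1, rose by 0.40 (0.0313). The other probe of Aif1 differed by 0.20 without XY pool 6 and by -0.01 with it, and was not called. For each of Olig1, Cldn11, Laptm5 and Aif1, XY pool 6 was on the far side of all 5 XX arrays.

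The largest positive and the largest negative difference over all autosomal probes were in S100a8 and Mcph1, which were chosen for description because of these values. S100a8 and S100a9 (chromosome 3) encode the subunits of calprotectin, which is abundant in neutrophils. S100a8 read 9.02, 8.04, 9.10, 8.75 and 9.05 in XX, 10.28, 9.25, 10.39 and 10.55 in 4 XY pools and 8.02 in XY pool 6. S100a9 read 7.30 to 7.85 in XX, 7.63 to 8.94 in 4 XY pools and 7.30 in XY pool 6. With all arrays they differed by 0.91 and 0.64. With the day 60 arrays alone and without XY pool 6 they rose by 1.33 (adjusted p = 0.0105) and 0.87 (0.0216).

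This probe of Mcph1 read 11.84 to 12.49 in XX, 11.10 to 12.07 in 4 XY pools and 7.69 in XY pool 6. Its difference was -1.50, and -0.75 without XY pool 6. A second probe differed by -1.20 and 2 others by 0.05 and 0.02, so the probes of this gene were split into 2 that were low on XY pool 6 and 2 that differed little.

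The same tissue at PN4, from mice without surgery or implant, was set beside the adult comparison to ask whether sex differences were unlike at the 2 ages. Age cannot be told apart from the surgery and implant, which only the adult mice had. The difference between ages in the XY minus XX difference passed the test for 2 of 12494 autosomal probes (0.016%, limma), and 1079 (8.64%) had an unadjusted p under 0.05. Both genes were higher in XY at PN4 and lower in XY at PN60, where neither passed. Without XY pool 6, 69 probes passed, and leaving out single arrays gave 0 to 69.

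Gatad1, a zinc finger protein that reads histone H3 trimethylated at lysine 4, had 1 of its 3 probes called. On this probe the PN4 arrays read 9.07, 8.73, 9.18, 8.95 and 9.11 in XX and 9.44, 9.55, 9.50, 9.56 and 9.69 in XY, without overlap. The PN60 arrays read 9.26, 9.34, 9.53, 9.39 and 9.43 in XX and 9.05, 9.36, 9.05, 9.26 and 8.90 in XY, and these overlapped. The difference was 0.54 at PN4 (SE 0.09, adjusted p = 0.0173), -0.27 at PN60 (SE 0.09) and -0.81 between them (SE 0.13, adjusted p = 0.0497). The other 2 probes gave -0.31 and -0.06 for the same contrast, and neither passed.

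Mtx1, metaxin 1, part of the protein import machinery of the mitochondrial outer membrane, was the other gene. It read 10.39 to 10.58 in XX and 10.77 to 10.91 in XY at PN4, and 10.55 to 10.95 in XX and 10.26 to 10.57 in XY at PN60. The difference between ages was -0.64 (SE 0.11, limma adjusted p = 0.0497), and no other probe of Mtx1 passed for it. At PN60 alone this probe differed by -0.30 and the others by -0.19 and -0.06, and none passed. The calls of Gatad1 and Mtx1 were close to the threshold, since each passed in 9 of 29 alternatives, with adjusted p from 0.00401 to 0.191 for Gatad1 and from 0.00661 to 0.323 for Mtx1.

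Genes that passed between XY and XX at PN4 were then followed into adulthood. Alcam, an adhesion molecule of growing axons, differed by -0.67 at PN4 (limma adjusted p = 0.0173) and by -0.19 at PN60 (interval -0.43 to 0.06). Syt4, a synaptotagmin of vesicle release, differed by -0.57 (0.0274) and -0.07, and Ifitm3, an interferon-induced membrane protein, by 0.86 (0.0196) and -0.10. Oprk1, the kappa opioid receptor, differed by -0.37 (0.0479) at PN4 and by -0.11 (interval -0.26 to 0.05) at PN60. Id1, an inhibitor of differentiation, differed by 0.54 and -0.08. None passed at PN60, and apart from Gatad1 the difference between ages passed for none of these.

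**Figure D5:**
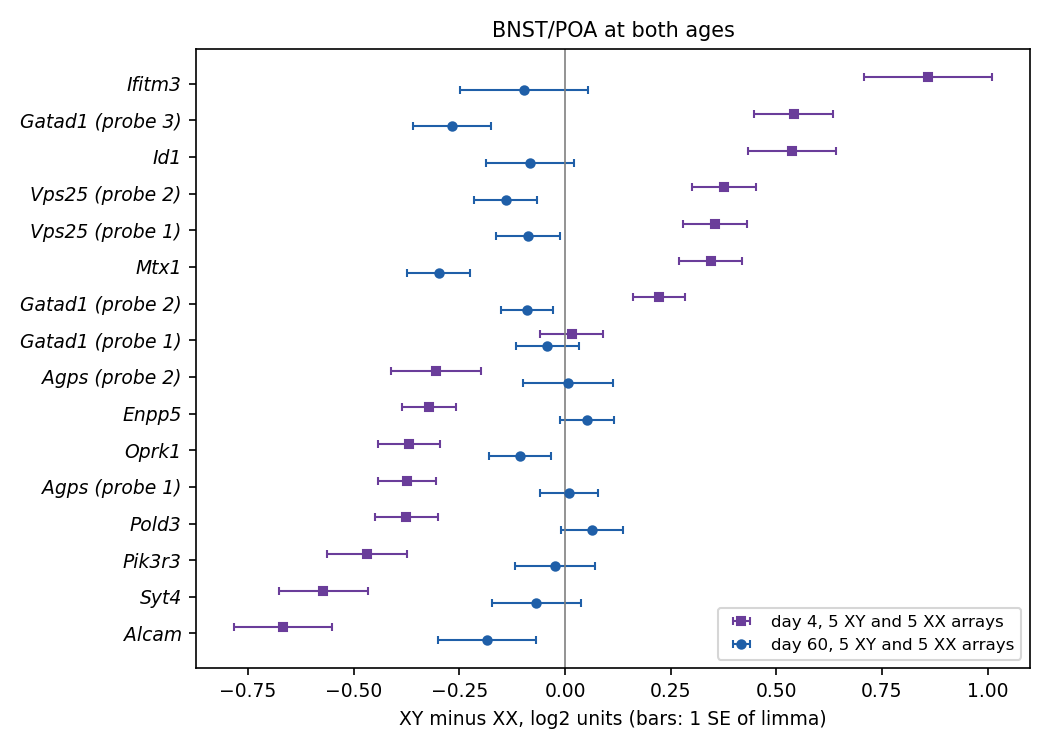
Difference XY minus XX (log2, horizontal axis) ± 1 SE at PN4 (squares) and PN60 (circles) in the BNST/POA for 16 probes of genes called at PN4 or between ages. The PN4 values run from -0.67 for Alcam to 0.86 for Ifitm3, whereas the PN60 values lie between -0.30 for Mtx1 and 0.06.

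Comparison with the striatum, dissected from mice of the same age and treatment, asked whether any sex difference was particular to the BNST/POA. No autosomal probe passed for a difference between regions (0 of 12494, 0%, limma), and 182 (1.46%) had an unadjusted p under 0.05. Kiss1 differed by -1.05 in the BNST/POA and by -0.04 in the striatum, and the difference between regions, -1.01, had an adjusted p of 1.00. Prok2 differed by -0.35 and 0.08 in the BNST/POA and the striatum, Rps26 by -0.27 and -0.13, and Cryab by -0.41 and -0.21. Without XY pool 6, 2 probes passed for a difference between regions. It is not known from the labels or methods whether a BNST/POA pool and a striatum pool shared animals.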

How the data were processed

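RNA of 57 pools, each of 3 mice, was hybridized by the authors to Illumina MouseRef-8 BeadChips, with the groups spread over chips. The deposited table holds the authors' scanner intensity and detection p-value for each probe, not normalized, and a second deposited table holds log2 values that the authors quantile-normalized after a detection filter. The intensity values were log2-transformed, quantile-normalized over all 57 arrays and kept where the detection p-value was under 0.05 on at least 20 arrays, as in the study's methods. The normalized values equalled the deposited ones within 5.0e-09. The filter as stated kept 13731 probes, whereas the deposited log2 table holds 13776, and the cause of this mismatch was not tested. A further 114 deposited columns (bead number and standard error) were not used. Per the methods, 3 outlying arrays had been removed by the authors before this step.

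Probes were named from the platform annotation (12944 of 13731 kept probes had 1 gene, 787 none) and placed through the Entrez ID, matched for 12939, in the RefSeq gene table of GRCm38.p6. Coordinates are those of the gene, and probe positions and sequences were not used here. Differences were fitted with limma 3.58.1 (R 4.3.3, package data.table, version 1.17.8, figures in python 3.11.15) on the 20 XX and XY BNST/POA arrays of both ages, which share one estimate of the spread, and p-values were adjusted by Benjamini-Hochberg over all 13731 kept probes. Intervals are limma's 95% intervals. The scripts were tested on simulated data. A gene with several kept probes is represented in the lists by the probe with the highest mean level.

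The comparison, the gene lists and the lead genes were chosen with earlier results of these data known. Genes were named by rule: the 10 largest positive and 10 largest negative differences among probes with groups that did not overlap and that were detected on all arrays of a group, every gene called with or without XY pool 6, every measured gene of the dimorphic list, the 3 largest differences of each other list, the genes the study reports for PN4 or for XX+T, and the genes farthest out on XY pool 6. Some genes outside this rule that are named were called in the fit without XY pool 6 or are stated as chosen after their values were seen. Others are further members of the lists, among them Oxt, Npy, Vip, Nts, Cck, Sst, Pdyn, Adcyap1, Mog, Sgk1, Fkbp5 and Rps2. These members were named by no rule, so their unadjusted p-values do not allow for the choice. Alternatives were other arrays in the fit, array weights, background correction, other normalizations and filters, a replicate block and leaving out each array. Chip and scanner were not used as blocks, since the sources used here do not give them for each array. The number of arrays limits the precision, as does the spread that XY pool 6 adds.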

Additional observations from a re-analysis of the deposited data

Results flagged for a closer look

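Dixon's test was run on 256 groups of 5 arrays, and 40 of them (15.6%) held an array far from the other 4, where chance gives about 1 in 20. The genes share arrays, so these are not 40 separate events. Some of the genes were named because of XY pool 6 (those called without it, and Mcph1), so the share is partly fixed by the choice of genes. Of the 40, 29 were XY groups and 11 XX groups, and XY pool 6 was the outlying array in 23, high in 11 and low in 12.

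XY pool 6 was high for Cryab (11.75), Agt (11.5), Ache (9.507), Gabrb1 (9.918), Slc17a6 (13.63), Jund (8.584), Laptm5 (11.77), Acta2 (10.39), Olig1 (13.86), Nefm (10.22) and Rpl28 (13.81). Genes of neurons, oligodendrocytes, astrocytes, microglia and vessels are all among them. XY pool 6 was low for Apoc3 (7.94), Spink8 (7.741), Chodl (9.036), Tac1 (10.54), Cycs (8.385), Otx2 (8.469), Hdac1 (8.878), Ctss (7.556), Avpr1a (8.173), Atp5c1 (13.59), 1 probe of Gatad1 (9.99) and Mcph1 (7.685). Laptm5 and Ctss are both markers of microglia and were on opposite sides.

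The other XY arrays that lay apart were XY pool 4 for Xrcc3 (8.619) and Hba-a1 (13.7), XY pool 5 for Cartpt (11.66), Slc4a1 (7.371) and Trh (13.14), and XY pool 3 for Kdm1a (10.96). Among XX arrays they were XX pool 1 for Ncoa4 (8.213) and Foxp1 (7.258), XX pool 2 for Ebna1bp2 (8.262) and Slc5a7 (7.985), XX pool 3 for Gal3st1 (10.36) and Kdm1a (10.59), XX pool 4 for Abcb4 (7.374) and Elavl4 (8.534), and XX pool 5 for Msi2 (8.15), Cox6c (13.46) and Esrrb (7.322). Slc4a1 was detected on 0 of the 10 arrays and Esrrb on 0 XX arrays and 1 XY array, so their values are background.

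The XY minus XX difference was called as unlike at PN60 and PN4, in a test of this contrast itself, for Gatad1 (-0.8087 at PN60 less PN4) and Mtx1 (-0.643), each on 1 probe of 3. Each passed in 9 of 29 alternatives. Age cannot be told apart from the surgery and implant, which only the PN60 mice had.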

How the results depend on the processing

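The count of 0 autosomal probes with an adjusted p under 0.05 became 6 when XY pool 6 alone was left out. It was 158 with array weights (56 higher, 102 lower in XY), where pool 6 had a weight of 0.0777 and the others 0.641 to 1.82, and 847 when pool 6 and the PN4 arrays were both left out. The 2 sets shared 131 probes, 82.9% of the 158 and 15.5% of the 847. Median centring called 1 (Kiss1), leaving out each array gave 0 to 6, and the other alternatives gave 0. The 312 probes at an unadjusted p under 0.05 became 171 with the day 60 arrays alone, 2845 with array weights, 190 with median centring (17 higher, or 8.95%, against 35.9%), 925 with a replicate block, 3121 for day 60 alone without pool 6, and 215 to 1591 without single arrays. Array weights and both settings without pool 6 also raised the share of higher probes, to 46.6%, 48.7% and 47.5%. The 57 probes without overlap became 24 with median centring and 1208 without XY pool 6.

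The 2 probes called for a difference between ages became 16 with all 6 groups in the fit, 520 with array weights, 10 with no detection filter and 0 with normexp correction, median centring, a trended and robust prior or the replicate block. Single arrays left out gave 0 to 69, with 27 without XX pool 1 of PN4 and 69 without XY pool 6 of PN60. The region contrast gave 0 to 2.

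Same-numbered pools did not pair at PN60. Their deviations correlated at 0.0158, 0.0301, -0.264 and 0.121, and XX pool 2 and XY pool 6 had no partner. At PN4 the deviations correlated at 0.655 for pool 3, which matched best, and at -0.592, -0.661, -0.5 and -0.605 for pools 1, 2, 4 and 5. With the replicate block 0 probes were called and Kiss1 differed by -0.77 (adjusted p = 0.618).

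List medians that moved were those of vessel wall cells (-0.13 with the block, -0.12 for day 60 alone without pool 6, -0.12 to -0.0047 without single arrays), neighbouring hypothalamus (-0.18 to -0.021), cholinergic genes (-0.061 with array weights, -0.046 with the block, -0.041 for day 60 alone without pool 6, -0.041 to 0.058) and blood (-0.21 for probes detected on at least 5 day 60 arrays). Without XY pool 6 the medians of forebrain transcription factors, thalamic markers and GABA and glutamate genes went from -0.03, -0.00 and 0.01 to -0.22, -0.21 and -0.15.

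Of 128 named genes, 106 kept their direction in all alternatives and 34 passed in at least 1. Directions turned with median centring for Chodl (-0.011), Ecel1 (-0.0067), Greb1 (0.0099), Nnat (-0.026), Pgr (-0.0084), Avp (-0.030) and Agps (-0.034). They turned with array weights for Ecel1 (-0.31), Nnat (-0.10), Bcl2 (-0.014), Ache (-0.18), Gabrb1 (-0.11), Slc17a6 (-0.072), Nefm (-0.20), Ndufb10 (0.011) and Prkcd (-0.16). With the block they turned for Ecel1 (-0.31), Nnat (-0.11), Bcl2 (-0.031), Ache (-0.17), Gabrb1 (-0.19), Slc17a6 (-0.046), Hcrt (-0.033), Nefm (-0.21), Esrrb (-0.0027) and Prkcd (-0.11), and for day 60 alone without pool 6 for Ecel1 (-0.27), Nnat (-0.051), Bcl2 (-0.019), Ache (-0.16), Gabrb1 (-0.15), Slc17a6 (-0.10), Nefm (-0.26) and Prkcd (-0.16). Single arrays turned Apoc3 (-0.035 to 0.43), Chodl (-0.061 to 0.22), Ecel1 (-0.27 to 0.21), Greb1 (-0.11 to 0.025), Nnat (-0.071 to 0.075), Pgr (-0.031 to 0.068), Avp (-0.093 to 0.10), Tac1 (-0.029 to 0.29), Bcl2 (-0.019 to 0.26), Ache (-0.16 to 0.17), Gabrb1 (-0.15 to 0.35), Slc17a6 (-0.10 to 0.21), Laptm5 (-0.62 to 0.035), Nefm (-0.26 to 0.31), Tnnt1 (-0.075 to 0.35), Prkcd (-0.16 to 0.38), Agps (-0.047 to 0.087), Klk6 (-0.027 to 0.18) and Pik3r3 (-0.069 to 0.035). None of these passed with all arrays, and the cause was not tested.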
